A study of Capra hircus with 11 samples.

Results

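EDN3 (endothelin 3, row gene13452 of the deposited tables) and NPPC (natriuretic peptide C precursor, row gene1400) are genes of 2 secreted peptide ligands. They are 2 of the 16678 gene rows of a goat (Capra hircus) single-cell RNA sequencing series, and each has 1 row. They were chosen by their level in CPM, their share of positive cells and their joint detection at day 8, with earlier results of these data known, so these values are a description of the tables. BFRTV0d cells were goat ear fibroblasts before induction. BFRTV4d and BFRTV8d cells were ear fibroblasts kept for 4 and 8 days in an induction medium named BFRTV. CiMECs were day-8 cells passaged further in goat mammary epithelial cell medium, and GMECs were naturally derived mammary epithelial cells. The induced and passaged cells were grown on Matrigel-coated plates. The labels name 3 samples for BFRTV0d, 3 for BFRTV4d, 2 for BFRTV8d, 1 for CiMECs and 2 for GMECs, and no source says whether they came from separate animals.

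Endothelins are made as precursors that furin and endothelin-converting enzymes cut into short peptides. They act through G protein-coupled receptors, of which EDNRB binds EDN3 well and EDNRA binds it weakly. EDN3 is best known for its role in neural crest cells that become melanocytes and enteric neurons. NPPC gives C-type natriuretic peptide, which acts on nearby cells through NPR2, a receptor that makes cyclic GMP, while NPR3 removes the peptide. NPPC is best known for its role in the growth of cartilage.

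Each group was deposited as 1 pooled table, so there was no replicate, no test and no p-value, and every difference compares these tables rather than conditions. Whether the samples of a group were separate libraries is not known, and cells could not be assigned to them. The tables held 5188 to 10670 barcodes and 97203521 to 117500853 UMIs, and the median barcode held 9089 to 19424 UMIs. Between 37 and 147 barcode sequences were shared by each pair of tables, at most 1.73% of either one. The CiMECs and GMECs tables were made differently from the 3 BFRTV tables. They list 74 ribosomal protein genes, which took 25.6% and 35.0% of their UMIs, while the BFRTV tables list none. Table set and group therefore cannot be told apart when CiMECs or GMECs are compared with a BFRTV table. The summed level of 10 mesenchymal markers was 10312 CPM (a gene's UMIs per 1000000 UMIs of its table) in BFRTV0d, 2336 CPM in BFRTV4d and 246 CPM in BFRTV8d, and 7.89 and 0.559 CPM in CiMECs and GMECs. The summed level of 10 epithelial markers was 217 CPM in BFRTV0d, 2103 CPM in BFRTV4d, 5275 CPM in BFRTV8d, 4927 CPM in CiMECs and 8147 CPM in GMECs. Both sums moved with the induction and are set beside the ligands below.

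EDN3 was found in the day-4 and day-8 tables alone. It had 488 UMIs in BFRTV4d, or 4.57 CPM (95% counting interval 4.17 to 5.00), in 365 of 10203 cells. In BFRTV8d it had 14130 UMIs, or 136.7 CPM (134.5 to 139.0), in 5809 of 10152 cells. The BFRTV0d, CiMECs and GMECs tables do not list it. The BFRTV tables list genes found in 11 cells or more and the other tables genes found in 6 or more. An unlisted gene was therefore set at a floor of 11 or 6 UMIs, with 1 UMI per cell. Cells can hold more than 1 UMI, so a fold against a floor is not a strict bound. The floors of EDN3 were 0.0936 CPM in BFRTV0d, 0.0617 CPM in CiMECs and 0.0541 CPM in GMECs. The level of EDN3 was 29.9-fold (27.3 to 32.8) higher in BFRTV8d than in BFRTV4d, where 2.26% of all 8469 genes passed a 4-fold rise. Against its floor in BFRTV0d, EDN3 was 48.8-fold higher in BFRTV4d. At 4.57 CPM it lay below the 10 CPM asked of the genes compared there, of which 5.35% were 4-fold higher. Against the same floor EDN3 was 1461-fold higher in BFRTV8d, where 10.3% of all genes compared were 4-fold higher. At its floor in CiMECs, EDN3 was 2215-fold lower than in BFRTV8d. In this comparison 27.0% of all genes were 4-fold lower or more, and the median log2 fold of all genes was −1.24. With TMM factors, which scale each table on the bulk of its genes, EDN3 was 993-fold lower. These folds chose the gene, and nothing is read from them against the shares of all genes.

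NPPC followed the same order of populations and was listed in 4 tables. It had 21 UMIs in BFRTV0d, or 0.179 CPM (0.111 to 0.273), and 1200 UMIs in BFRTV4d, or 11.2 CPM (10.6 to 11.9). In BFRTV8d it had 25123 UMIs, or 243 CPM (240.1 to 246). In CiMECs 9 UMIs remained, or 0.0926 CPM (0.0423 to 0.176), and the GMECs table does not list it, with a floor of 0.0541 CPM. NPPC was therefore highest at day 8, next at day 4, and at or near the floor before induction, after passaging and in natural mammary cells. Its level in BFRTV8d was 21.6-fold (20.4 to 22.9) higher than in BFRTV4d and 1360-fold (890 to 2198) higher than in BFRTV0d. It was 62.9-fold (41.0 to 102) higher in BFRTV4d than in BFRTV0d. CiMECs had a 2626-fold (1383 to 5743) lower level than BFRTV8d, or 1177-fold with TMM factors. BFRTV0d and CiMECs, the neighbours at the low end, were not separable, with a ratio of 1.93 (0.847 to 4.79). At its floor in GMECs, NPPC was 4498-fold lower than in BFRTV8d, or 2503-fold with TMM factors.

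**Figure D1:**
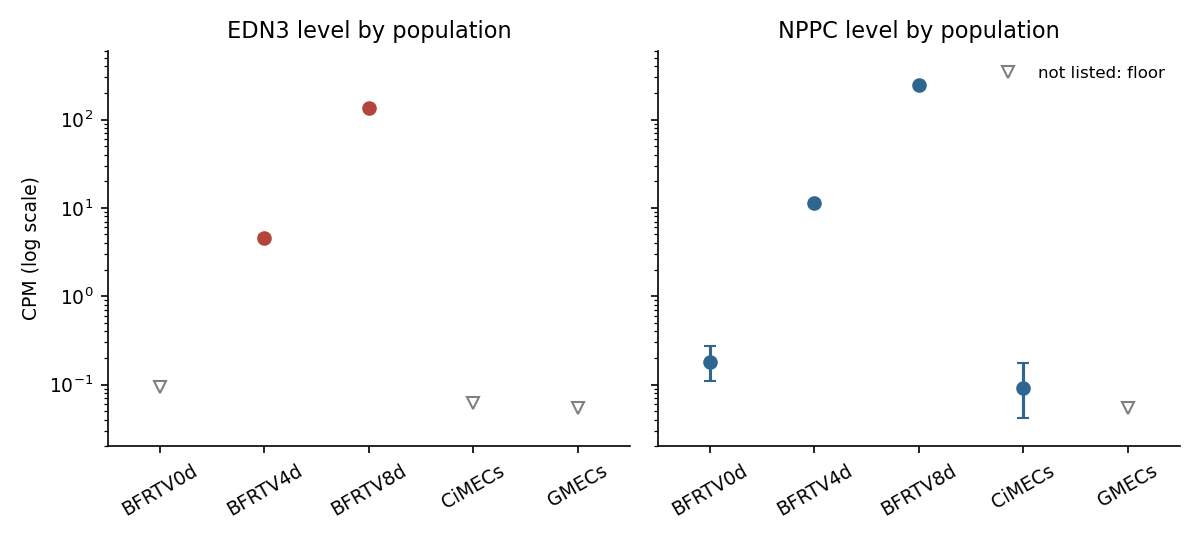
Level of EDN3 (left) and NPPC (right) in CPM on a log axis in the 5 populations, 1 pooled table each. Filled points are measured levels with exact Poisson 95% intervals, and open triangles are the floors of tables that do not list the gene. Both ligands peak in BFRTV8d, at 136.7 and 243 CPM. Their measured levels or floors lie below 0.3 CPM in BFRTV0d, CiMECs and GMECs.

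The few NPPC UMIs outside the induction came from deep barcodes. In BFRTV0d they lay in 13 of 10670 cells, or 0.122%, whose median total was 34602 UMIs against 10070 UMIs over the table. Of these 13 cells, 10 held at least 2 epithelial marker UMIs, against 9.45% of all BFRTV0d cells, and all 13 held at least 2 mesenchymal marker UMIs, as did 99.9% of the table. These marker UMIs were counted without matching the depth, and deeper cells reach 2 UMIs more easily. A split of the day-0 cells by markers counted at equal depth is given below, with the day-4 split. In CiMECs 6 of 5188 cells were positive, with a median total of 30471 UMIs against 17232 UMIs over the table. No doublet caller was run, and the part of doublets in these cells was not tested.

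The rise between day 4 and day 8 was seen in the share of positive cells as well as in the level. To compare tables at 1 depth, each cell was thinned at random to 3000 UMIs, which left out 45 cells of BFRTV4d, 8 of BFRTV8d and 837 of CiMECs. After thinning, EDN3 was found in 1.25% (1.04 to 1.49) of BFRTV4d cells and in 30.1% (29.2 to 31.0) of BFRTV8d cells. Without thinning these shares were 3.58% and 57.2%. NPPC was found in 0.0375% (0.0102 to 0.0960) of thinned BFRTV0d cells, in 2.90% (2.59 to 3.25) of BFRTV4d cells, in 36.2% (35.3 to 37.2) of BFRTV8d cells and in 0.0230% (0.000582 to 0.128) of CiMECs. Its shares without thinning were 0.122%, 7.25%, 58.6% and 0.116%. The shares depend on the depth, since detection rises with the UMIs read from a cell.

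At day 8 the UMIs of each ligand were spread unevenly over the cells. EDN3 had at most 21 UMIs in a cell, with a median of 2 UMIs among positive cells, and 43 cells (0.424%) held 10 or more. NPPC had at most 86 UMIs in a cell, also with a median of 2 UMIs among positive cells, and 606 cells (5.97%) held 10 or more. The 10% of cells with the most EDN3 held 40.1% of its UMIs, and the 10% with the most NPPC held 52.2% of its UMIs. After thinning, the variance of the UMIs per cell was 1.40 times the mean for EDN3 and 2.75 times the mean for NPPC. Over the 2817 genes with at least 50 CPM this ratio had a median of 1.06. Of these genes 293 lay above EDN3 and 77 above NPPC, so NPPC in particular was among the more uneven genes of the day-8 table. The ratio rises with a gene's level.

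**Figure D2:**
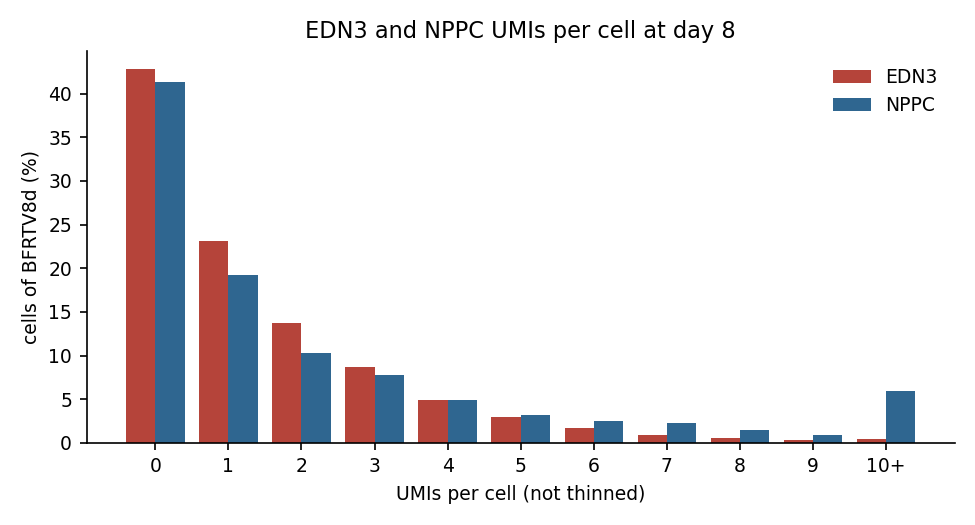
Share of the BFRTV8d cells (percent) holding each number of EDN3 or NPPC UMIs, without thinning, with 10 or more in the last bin. The last bin holds 0.424% of cells for EDN3 and 5.97% for NPPC.

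The cells that held the ligands were those with epithelial markers. Thinned cells were split by 10 epithelial markers (EPCAM, CDH1, CLDN1, CLDN4, CLDN7, KRT19, KRT7, DSP, ESRP1 and ELF3) and 10 mesenchymal markers (COL1A1, COL1A2, COL3A1, COL5A1, COL6A1, COL6A2, DCN, LUM, PDGFRB and FBN1), a set being met with at least 2 UMIs. These classes are ranges of a score and not cell types. At day 8, 4.58% of cells held 1 or 2 epithelial UMIs and 7.24% held 1 or 2 mesenchymal UMIs, next to the limit. The epithelial set alone was met by 41.6% of BFRTV4d cells and 93.4% of BFRTV8d cells, and the mesenchymal set alone by 44.2% and 2.36%.

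EDN3 was found in 31.6% (30.6 to 32.5) of the 9474 day-8 cells that met the epithelial set alone and in 3.35% (1.46 to 6.49) of the 239 that met the mesenchymal set alone. Its level was 146 CPM (144 to 149) in the former and 10.1 CPM (6.76 to 14.5) in the latter, although the latter were deeper, with median totals of 8944 and 11930 UMIs. NPPC was found in 38.0% (37.0 to 39.0) and 2.93% (1.19 to 5.94) of the same cells, at 260 CPM (257 to 263) and 13.6 CPM (9.65 to 18.6). Cells that met the epithelial set alone held 97.7% of the EDN3 UMIs and 97.8% of the NPPC UMIs of the table. Cells that met both sets lay between, with 12.8% (9.28 to 17.1) positive for EDN3 and 19.4% (15.1 to 24.3) for NPPC. Cells with the mesenchymal set alone were taken as the class that should lack the ligands, and their share as the level that free RNA can give. In those cells 0.744 EDN3 UMIs (0.443 to 1.23) were found per NPPC UMI, and in cells with the epithelial set alone 0.562 (0.550 to 0.574), so the intervals overlap. The ratio in the mesenchymal cells rests on 29 EDN3 and 39 NPPC UMIs. That these cells lack the ligands was assumed and not shown, and the part of free RNA in them was not tested.

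The same split was seen at day 4. EDN3 was positive in 2.46% (2.02 to 2.97) of the 4225 BFRTV4d cells with the epithelial set alone and in 0.134% (0.0491 to 0.291) of the 4490 cells with the mesenchymal set alone. NPPC was positive in 5.87% (5.18 to 6.62) and 0.111% (0.0362 to 0.260). The epithelial cells held 76.4% of the EDN3 UMIs and 83.1% of the NPPC UMIs. Their median total of 9515 UMIs was close to the 9462 UMIs of the mesenchymal cells. At day 0, 93.8% of thinned cells met the mesenchymal set alone, where NPPC was at 0.057 CPM (0.0209 to 0.124). It was at 0.656 CPM (0.135 to 1.92) with the epithelial set alone. With both sets it was at 1.30 CPM (0.521 to 2.67), and with neither at 2.16 CPM (0.702 to 5.05). Median totals were 9929 UMIs in the mesenchymal class and at least 16013 UMIs in the others. These levels rest on 3 to 7 UMIs per class, and the part of doublets was not tested.

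Since the epithelial class grew between the times, the change was also taken within it, a comparison chosen after the data were seen. Within cells that met the epithelial set alone, EDN3 went from 8.62 CPM (7.77 to 9.54) in BFRTV4d to 146 CPM in BFRTV8d, a 16.9-fold (15.3 to 18.8) difference. NPPC went from 23.1 CPM (21.7 to 24.6) to 260 CPM, a 11.2-fold (10.6 to 12.0) difference. Both folds were lower than over all cells, 29.9 and 21.6. Cells that met the mesenchymal set alone numbered 4490 at day 4 and 239 at day 8. In them the folds were 20.8 (11.6 to 38.0) for EDN3 and 19.9 (12.1 to 33.0) for NPPC. These folds rest on few UMIs, 22 and 31 at day 4 and 29 and 39 at day 8. The part of free RNA in these UMIs was not tested. In cells with the epithelial set alone the EDN3 UMIs per NPPC UMI were 0.373 (0.330 to 0.421) at day 4. At day 8 they were 0.562 (0.550 to 0.574). These intervals hold counting error only and take each UMI as a separate draw, while the UMIs were spread unevenly over cells. They are therefore too narrow, and no difference between the times is read from them. The epithelial set was also met where the ligands were at or near the floor. It took 98.9% of thinned CiMECs and 99.9% of thinned GMECs, where EDN3 is not listed and NPPC is listed with 9 UMIs in CiMECs alone.

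**Figure D3:**
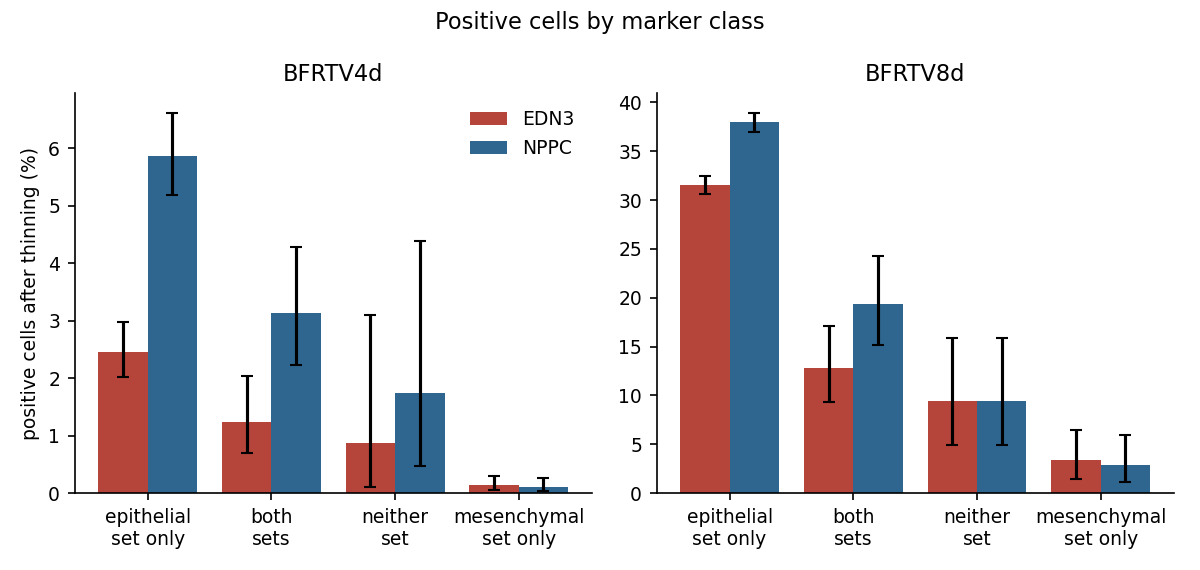
Share of EDN3-positive and NPPC-positive cells (percent, after thinning to 3000 UMIs) in BFRTV4d and BFRTV8d by marker class, with exact binomial 95% intervals and a separate vertical scale for each table. In BFRTV8d the cells with the epithelial set alone stand at 31.6% and 38.0%, and those with the mesenchymal set alone at 3.35% and 2.93%.

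EDN3 and NPPC were found in the same day-8 cells somewhat more often than their single shares give. Of 10144 thinned cells, 1330 held both, 1719 EDN3 alone, 2345 NPPC alone and 4750 neither. The cells with both made up 13.1% (12.5 to 13.8), against 10.9% if detection were independent, a ratio of 1.20 (1.14 to 1.27). NPPC was found in 43.6% of EDN3-positive and 33.1% of EDN3-negative cells. Within cells that met the epithelial set alone the ratio was 1.15 (1.10 to 1.21). Within 4 equal groups of cells by total UMIs it was 1.15, 1.15, 1.29 and 1.23, from the shallowest to the deepest. Without thinning 38.0% of cells held both, against 33.5%, a ratio of 1.13. NPPC was then found in 66.3% of EDN3-positive cells. The cells come from 1 pooled table and share free RNA, and the 2 labelled samples in it could not be taken apart. The part of a difference between these samples in the joint detection was not tested.

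The share of cells with one ligand was higher where the other had more UMIs. NPPC was found in 33.1% of cells with no EDN3 UMI, 41.2% (39.1 to 43.4) of those with 1, 48.2% (44.4 to 52.0) of those with 2 and 51.6% (44.2 to 58.9) of those with 3. In the 78 cells with at least 4 EDN3 UMIs it was 47.4% (36.0 to 59.1), which overlaps its neighbours. EDN3 was found in 26.6%, 32.1%, 38.5% and 40.3% of cells with 0, 1, 2 and 3 NPPC UMIs, and in 45.7% (41.2 to 50.2) of the 495 cells with at least 4. At day 4 only 10 thinned cells held both ligands, 2.71 times (1.30 to 4.98) the share that independence gives. Within day-4 cells that met the epithelial set alone the ratio was 1.64 (0.786 to 3.01), an interval that includes 1.

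**Figure D4:**
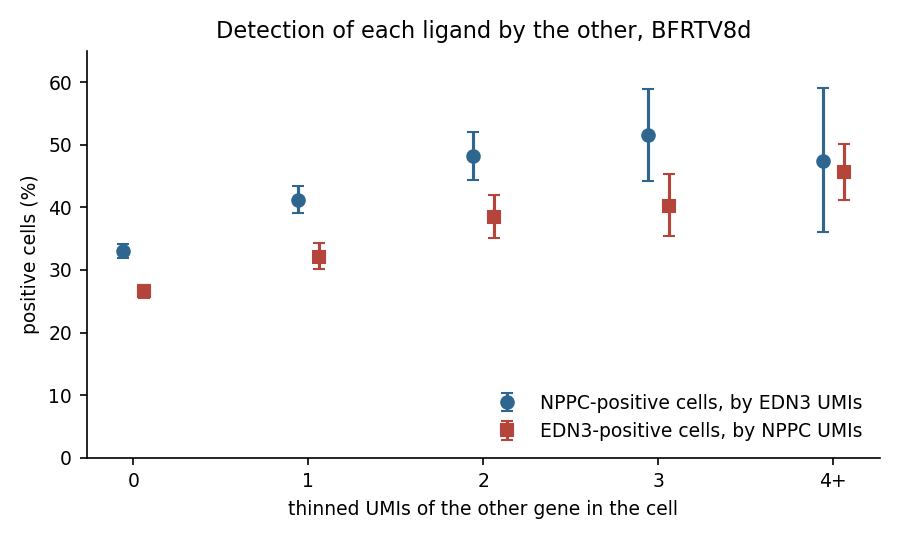
Share of BFRTV8d cells (percent, thinned) positive for NPPC by the number of EDN3 UMIs (circles) and positive for EDN3 by the number of NPPC UMIs (squares), with exact binomial 95% intervals. The NPPC share goes from 33.1% at 0 EDN3 UMIs to 51.6% at 3, and the EDN3 share from 26.6% at 0 NPPC UMIs to 45.7% at 4 or more.

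The 4 detection groups at day 8 were compared for other marker sets as a description, since the ligands themselves define the groups. The mesenchymal set was met by 1.28% (0.746 to 2.04) of cells with both ligands, 1.75% with EDN3 alone, 2.09% with NPPC alone and 9.41% (8.59 to 10.3) with neither. The basal set, which includes the keratins KRT5 and KRT14, was met by 100% of cells with both and 95.6% of cells with neither. The luminal set, which includes KRT19, KRT8 and KRT18, was met by 99.2% and 92.0%. Most cells of every detection group thus met both sets.

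The cycling set was met less often by NPPC-positive cells. NPPC was positive in 21.9% (19.0 to 25.2) of the 711 day-8 cells that met a set of 8 proliferation genes, such as MKI67 and TOP2A, and in 37.3% (36.3 to 38.3) of the other cells. EDN3 was positive in 28.1% (24.9 to 31.6) and 30.2% (29.3 to 31.2), intervals that overlap. The cycling set was met by 2.93% (2.09 to 3.99) of cells with both ligands, 4.99% (4.14 to 5.95) with NPPC alone, 9.37% (8.03 to 10.8) with EDN3 alone and 8.29% (7.53 to 9.12) with neither. The secretory set, with TFF3, AGR2 and LTF, was met by 1323 cells, of which 40.1% (37.5 to 42.8) held NPPC and 28.7% (26.3 to 31.2) held EDN3. Outside it the shares were 35.6% (34.6 to 36.7) and 30.3%. The contractile set showed 38.8% (37.3 to 40.3) NPPC-positive cells where met and 34.5% (33.3 to 35.7) elsewhere. The chondrocyte set, whose UMIs were nearly all from SOX9, showed 39.3% (37.7 to 40.9) NPPC-positive cells where met and 34.4% (33.3 to 35.6) elsewhere. For EDN3 these shares were 32.0% (30.5 to 33.5) and 28.9% (27.8 to 30.03), so both ligands were found more often there.

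Markers of melanocytes, nerve cells and vessels were below 12 CPM or not listed in the day-8 table. Of the melanocyte markers, MITF was at 11.8 CPM, KIT at 4.32 CPM, PMEL at 2.30 CPM and TYR at 0.155 CPM, while MLANA and DCT were not listed. The neuroendocrine and neuronal list had 1 of 8 members listed, CHGA at 3.34 CPM. The endothelial list had 2 of 7 listed at 2.79 CPM in all, with PECAM1, CDH5, TEK, CLDN5 and ESAM not listed.

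Over the 10144 thinned day-8 cells, each ligand was correlated with the 6020 genes found in at least 5% of them. All correlations were weak, between −0.18 and 0.22 for EDN3 and between −0.24 and 0.30 for NPPC, and they are given as a description of cells that share a table. SPP1, the gene of osteopontin, had the highest correlation with each ligand, r = 0.221 with EDN3 and r = 0.299 with NPPC. Its level was 26359 CPM in cells with both, 20810 CPM with NPPC alone, 16838 CPM with EDN3 alone and 12676 CPM with neither. LOC102179515, GLUL (glutamine synthetase), KRT19, LOC102175871, PTMA, GPX2, FXYD3, IDH1 and S100A2 followed SPP1 for EDN3. KRT5 (r = 0.225), KRT19, LOC102179515, S100A2, ATP6V1B1, KRT7, LOC102177275, KRT14 and GLUL followed for NPPC. The lists of 10 shared 5 genes, 50% of each. NPPC was 12th for EDN3 and EDN3 was 16th for NPPC, with r = 0.129. The lowest correlations of both ligands were with FTL, the ferritin light chain, at r = −0.183 with EDN3 and r = −0.240 with NPPC. FTH1 (the ferritin heavy chain) and VIM (vimentin) were among the 5 lowest of both, with LGALS1 and CDKN1A for EDN3 and LOC102188072 and RPS27L for NPPC.

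Genes with a pattern most like the ligands over the 5 tables were sought among 4146 genes with at least 50 CPM in 1 table. Each gene's CPM values were taken as shares of their sum, and the distance is the part of the sum that would have to move to match the ligand. EDN3 had 96.8% of its sum at day 8 and NPPC had 95.5%. NPPC was the closest gene to EDN3, at a distance of 0.0129, and EDN3 was second to ATP6V1B1 (0.00521), a subunit of the vacuolar proton pump, for NPPC. ATP6V1B1 was listed at 8.98 CPM in BFRTV4d, 176.6 CPM in BFRTV8d, 0.134 CPM in CiMECs and 0.126 CPM in GMECs and was not listed in BFRTV0d. The interferon-induced genes MX2, IFI44, RSAD2 and IFIT3 were among the 10 closest to each ligand, with 90.2% to 94.1% of their sums at day 8. The remaining genes were TMPRSS4, a membrane serine protease, C28H10orf99, LOC102178993 and LOC100861279, the same for both ligands. Day 8 is thus the peak of all these genes, by the way they were picked.

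Of the interferon genes, IFI6 was found in 99.8% to 99.9% of thinned day-8 cells in each detection group. ISG15 was found in 40.2% to 45.6%. A set of 10 interferon response genes had a summed level of 265 CPM in BFRTV4d and 7756 CPM in BFRTV8d, led by IFI6 at 6707 CPM. It was met by 99.7% of cells in each of the 4 detection groups. The median correlation of its 8 members found in enough cells was −0.0156 with EDN3 and −0.00187 with NPPC. Over all 6020 genes these medians were 0.0025 and −0.00216.

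The other ligands of both families had other patterns over the tables. EDN1, the endothelin of vessel walls, was at 3.87 CPM in BFRTV0d, 2.84 CPM in BFRTV4d, 23.1 CPM in BFRTV8d, 42.0 CPM in CiMECs and 60.8 CPM in GMECs. It was highest in CiMECs and GMECs, where EDN3 was not listed, but low in BFRTV0d, where EDN3 was not listed either. Like EDN3, EDN1 was higher in BFRTV8d than in BFRTV4d, by 8.12-fold. EDN1 was 1.82-fold higher in CiMECs than in BFRTV8d, or 4.06-fold with TMM factors. EDN2 was at 16.1 CPM in BFRTV0d, 0.590 CPM in BFRTV4d and 0.348 CPM in BFRTV8d, a 27.3-fold lower level at day 4 and a 46.2-fold lower level at day 8 than at day 0. Of all genes 5.77% were 4-fold lower or more at day 4. In CiMECs and GMECs EDN2 was at 0.206 and 1.36 CPM. Its level in CiMECs was 1.69-fold lower than in BFRTV8d, but 1.32-fold higher with TMM factors. NPPB, the gene of B-type natriuretic peptide, was at 12.7 CPM in BFRTV0d, 0.843 CPM in BFRTV4d, 1.08 CPM in BFRTV8d, 37.1 CPM in CiMECs and 48.7 CPM in GMECs. It was 34.2-fold higher in CiMECs than in BFRTV8d, where 1.93% of all genes passed a 4-fold rise, while NPPC was 2626-fold lower. With TMM factors NPPB was 76.3-fold higher. Between GMECs and CiMECs, EDN1 and NPPB were 1.45-fold and 1.31-fold higher in GMECs, or 1.17-fold and 1.06-fold with TMM factors. In this comparison 3.08% of all genes passed a 4-fold rise and 2.69% a 4-fold fall. Against BFRTV0d, EDN1 was 15.7-fold higher in GMECs (31.4-fold with TMM factors), where 3.88% of all genes passed a 4-fold rise and 21.4% a 4-fold fall. NPPA was in none of the tables. EDN3 and NPPC were chosen by their level at day 8, so their families are described without them. Of the other ligands, EDN1 was 5.95-fold higher in BFRTV8d than in BFRTV0d, and EDN2 and NPPB were 46.2-fold and 11.7-fold lower. A 4-fold rise between these tables was passed by 10.3% of the genes compared, and a 4-fold fall by 9.81%. These folds are over all cells. In BFRTV0d, the 250 cells with the epithelial set alone had EDN1, EDN2 and NPPB at 42.4, 87.3 and 136 CPM. The 10010 cells with the mesenchymal set alone had them at 0.817, 6.27 and 1.96 CPM. In BFRTV8d, cells with the epithelial set alone had them at 24.6, 0.338 and 1.10 CPM.

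EDNRA went down during induction, when EDN3 went up. EDNRB, the main receptor of EDN3, was at 0.213 CPM in BFRTV0d, 0.281 CPM in BFRTV4d and 0.977 CPM in BFRTV8d and was not listed in CiMECs and GMECs. Its 101 UMIs at day 8 lay mostly, 92.1%, in cells with the epithelial set alone, which made up 93.4% of the table. EDNRA was at 131.4 CPM in BFRTV0d, 116 CPM in BFRTV4d, 12.1 CPM in BFRTV8d and 0.165 CPM in CiMECs and was not listed in GMECs. It was 10.8-fold lower in BFRTV8d than in BFRTV0d and 9.57-fold lower than in BFRTV4d, where 2.52% of all genes passed a 4-fold fall. At day 8 it was at 105 CPM in the 239 cells with the mesenchymal set alone and 7.21 CPM in cells with the epithelial set alone, the opposite order to EDN3. Since the epithelial class was much larger, it still held 54.4% of the EDNRA UMIs, and the mesenchymal class held 24.2%. At day 4 these levels were 200.5 and 29.7 CPM.

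NPR2, the signalling receptor of the NPPC peptide, was at 9.40 CPM in BFRTV0d, 10.7 CPM in BFRTV4d, 5.69 CPM in BFRTV8d, 4.10 CPM in CiMECs and 6.14 CPM in GMECs. It was thus listed in every table. Its levels in CiMECs and GMECs are without TMM factors, and no difference from the BFRTV tables is read from them. At day 8 its level was 5.47 CPM in cells with the epithelial set alone and 9.05 CPM (5.91 to 13.3) with the mesenchymal set alone. NPR3, the clearance receptor, was at 0.204 CPM in BFRTV0d, 2.06 CPM in BFRTV4d and 0.377 CPM in BFRTV8d and was not listed in CiMECs and GMECs. Its level at day 4 was 3.88 CPM in cells with the mesenchymal set alone and 0.278 CPM with the epithelial set alone. NPR1, the receptor of the other natriuretic peptides, was in none of the tables.

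**Figure D5:**
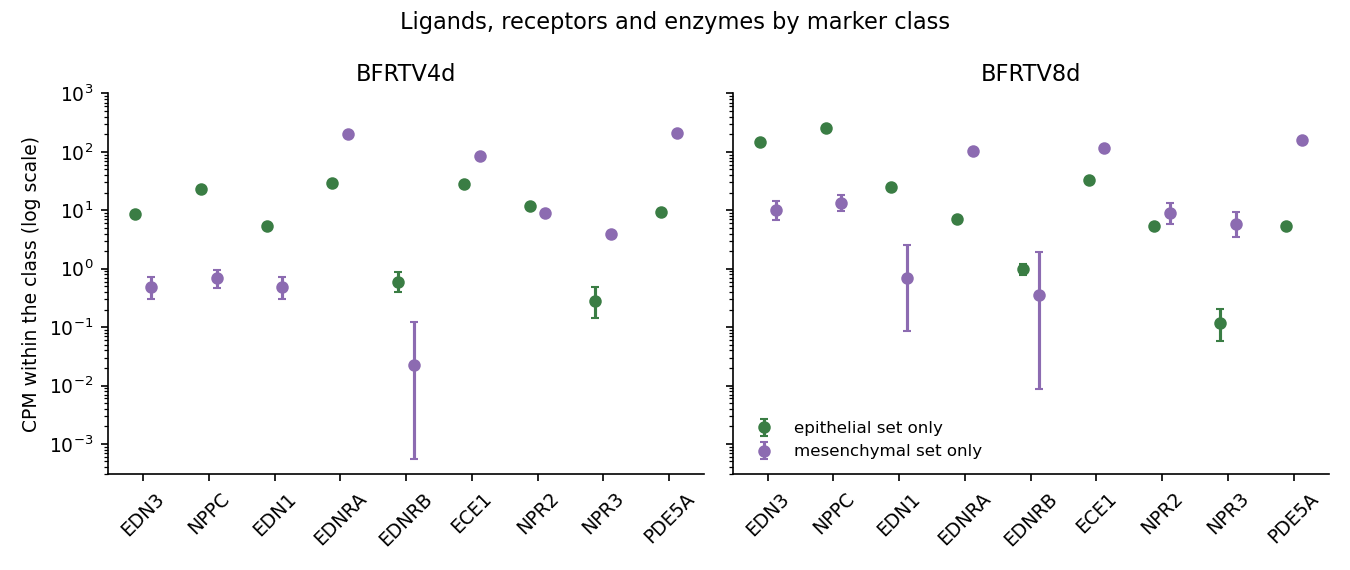
Level (CPM within the class, log axis) of the ligands EDN3, NPPC and EDN1, the receptors EDNRA, EDNRB, NPR2 and NPR3, and the enzymes ECE1 and PDE5A in cells with the epithelial or the mesenchymal set alone, in BFRTV4d (left) and BFRTV8d (right), with exact Poisson 95% intervals. In BFRTV8d EDN3 and NPPC are higher in the epithelial class (146 and 260 CPM), and EDNRA, NPR3 and PDE5A in the mesenchymal class (105, 5.92 and 158 CPM).

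Of the enzymes that process or remove the peptides, ECE1, FURIN, CTSA and IDE were listed in every table. MME, which degrades both peptides, was listed in BFRTV8d at 0.581 CPM and in GMECs at 0.0991 CPM alone. ECE1, which cuts endothelin precursors, was at 36.4, 58.7 and 38.6 CPM at days 0, 4 and 8, and at 26.2 CPM in CiMECs and 109.7 CPM in GMECs. Its log2 fold of CiMECs over BFRTV8d was −0.558, smaller in size than the 1.16 by which TMM factors raise all genes there. At day 8 it was at 33.6 CPM in cells with the epithelial set alone and 114.5 CPM with the mesenchymal set alone. ECE2 was 9.62-fold lower in BFRTV8d, at 3.01 CPM, than in BFRTV0d, at 28.9 CPM. FURIN, which cuts both precursors, was at 116, 63.8 and 85.1 CPM at days 0, 4 and 8, and at day 8 it was at 88.3 CPM with the epithelial and 35.5 CPM with the mesenchymal set alone. CTSA, a carboxypeptidase that degrades endothelins, was at 59.1, 30.7 and 21.5 CPM at days 0, 4 and 8, and IDE, which degrades natriuretic peptides, at 44.9, 53.9 and 66.0 CPM. Of the 4 compared members of the endothelin processing list 1 (ECE2) was at least 4-fold lower in BFRTV8d than in BFRTV0d, and of the 2 compared natriuretic ones none was at least 4-fold apart. Over all genes 10.3% were 4-fold higher and 9.81% lower in this comparison. The 7 compared peptide precursor processing genes held no 4-fold difference between these tables. Among them CPD, a carboxypeptidase, was at 50.2, 82.8 and 130 CPM at days 0, 4 and 8 and PAM, which amidates peptides, at 86.4, 60.7 and 101.9 CPM.

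Genes that act after the receptors were compared as lists. Of the 3 compared cyclic GMP genes, PDE3A was 14.8-fold lower in BFRTV8d, at 2.35 CPM, than in BFRTV0d, at 34.8 CPM. PDE5A, which degrades cyclic GMP, was at 31.1, 113 and 14.0 CPM at days 0, 4 and 8. It was thus 8.11-fold lower at day 8 than at day 4, where 2.52% of all genes passed a 4-fold fall. At day 8 its level was 158 CPM with the mesenchymal and 5.44 CPM with the epithelial set alone. VASP, a target of the cyclic GMP kinase, was at 207.7, 78.7 and 101.3 CPM. None of the 7 compared Gq and calcium genes was 4-fold apart between BFRTV8d and BFRTV0d, with GNA11 2.01-fold lower and PRKCZ 3.62-fold higher at day 8. The median log2 fold of this list was 0.20, and that of all 9317 genes compared was −0.29. Of all these genes 10.3% were 4-fold higher and 9.81% lower, so nothing is read from the count of the 7.

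Other peptide ligands moved in both directions. Apart from both families, 62 such genes were looked for, and 11 could be compared between BFRTV8d and BFRTV0d. Of these, 4 were at least 4-fold higher (ADM, ADM2, SCT and STC2) and 2 lower (GAL and TAC1), beside 10.3% and 9.81% of all genes. ADM, the gene of adrenomedullin, was at 97.4, 552 and 706 CPM at days 0, 4 and 8 and at 5.60 CPM in CiMECs. STC2 (stanniocalcin 2) was at 3.24, 7.63 and 50.3 CPM and at 0.206 CPM in CiMECs. PTHLH, the parathyroid hormone-related peptide, was at 20.3, 21.5 and 78.4 CPM and at 8.92 CPM in CiMECs. Between BFRTV8d and CiMECs, ADM was 126-fold, STC2 244-fold and PTHLH 8.79-fold lower. With TMM factors these values were 56.6-fold, 110-fold and 3.94-fold, so PTHLH fell below the 4-fold limit. ADM differed from EDN3 and NPPC in its cells, with 1748 CPM in day-8 cells with the mesenchymal set alone and 656 CPM with the epithelial set alone. GRP was at 118.8, 34.4 and 31.7 CPM at days 0, 4 and 8, and NUCB2 at 31.4, 33.0 and 24.3 CPM.

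Genes next to EDN3 and NPPC on their chromosomes, named by RefSeq for the assembly ARS1.2 and chosen after the ligands' values were seen, changed less. Beside EDN3, PHACTR3 and ZNF831 were in none of the tables, SYCP2 was listed at 0.178 CPM in BFRTV4d and 0.106 CPM in BFRTV8d, and PRELID3B was at 121.8, 53.3 and 96.9 CPM at days 0, 4 and 8 and 53.3 and 35.9 CPM in CiMECs and GMECs. Beside NPPC, DIS3L2 was at 4.80, 5.15 and 9.45 CPM at these days and 1.47 and 1.94 CPM in CiMECs and GMECs. PDE6D was at 19.5, 11.7 and 23.5 CPM, and then at 10.6 and 3.68 CPM. Both were thus highest at day 8 as well, by far smaller steps. COPS7B was at 29.3, 13.8 and 14.3 CPM, and then at 4.04 and 6.99 CPM.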

How the data were processed

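Single cells were captured with the 10x Genomics Single Cell 3′ V2 kit. The authors deposited 1 table per group of whole-number UMI counts per gene and barcode, with no normalization, and FastQC 0.10.1 and Cell Ranger (no version) are named in the submitters' processing notes. The sources used here give neither genome build nor annotation, and no coordinates or sequences are printed. Barcodes carry no sample, so each group was treated as 1 pooled table. Counts of the deposited tables were summed over barcodes and scaled to CPM. Of the 16678 gene rows, 12729 are in all 5 tables, and both ligands matched the RefSeq table of ARS1.2, used for names.

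The members, the gene lists and the comparisons were chosen with earlier results of these data known. Folds have exact conditional binomial, levels exact Poisson and shares exact Clopper-Pearson 95% intervals. UMIs of a pooled table give counting error only. Genes with at least 10 CPM in 1 of 2 tables were compared, and those 4-fold apart counted. A fold against an unlisted gene takes each of its fewest cells to hold 1 UMI. Thinning drew 3000 UMIs per cell without replacement (seed 1). Correlations used log2(1 + thinned UMIs). Ribosomal protein genes were left out of the search over tables. No doublet caller was run, and the 5% of barcodes with the most UMIs were left out instead as an alternative. The fold and thinning steps were checked on simulated data. Named genes were the ligands, their family members and receptors, up to the 6 highest of each pathway list with at least 10 CPM, some of which are given as counts only, the 10 genes nearest over tables, and the 10 highest and 5 lowest correlations. Marker genes are named as members of their lists, and 1 marker list is not reported here in full. Python 3.11.15, numpy 2.4.6, scipy 1.17.1, R 4.3.3, edgeR 4.0.16 (TMM factors) and DESeq2 1.42.0 (median-of-ratios factors) were used, edgeR and DESeq2 for scaling alone.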

Additional observations from a re-analysis of the deposited data

How the results depend on the processing

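Of 39 alternative values, 21 stayed within the counting interval or within 1.5 times the count, 18 moved and 0 turned direction. Only the folds and the co-detection ratio could turn direction, since shares of cells and counts of genes have none. The log2 folds of BFRTV8d over BFRTV4d, 4.90 for EDN3 and 4.43 for NPPC, stayed within their intervals with TMM and median-of-ratios factors, with the mean of each cell's CPM and without the 5% of barcodes with the most UMIs. In cells that met the epithelial set alone, an alternative chosen after seeing the data, they were 4.08 and 3.49. The share of EDN3-positive and NPPC-positive cells at day 8 was 23.0% and 28.7% with thinning to 2000 UMIs, 42.3% and 46.2% with 5000 UMIs, 57.2% and 58.6% without thinning and 9.49% and 16.5% where 2 UMIs were asked for. In cells that met the epithelial set alone these shares were 31.6% and 38.0%, and another random seed gave 31.3% for EDN3. The co-detection ratio of 1.20 was 1.13 without thinning and 1.66 at 2 UMIs. Pathway-list genes at least 4-fold apart between BFRTV8d and BFRTV0d numbered 14, against 5 with at least 50 CPM, 31 with no filter and 27 at 2-fold. These counts include EDN3 and NPPC. At the main setting 10.3% of all genes were 4-fold higher and 9.81% lower. Such shares were not computed for the alternatives, and the filters change how many genes are compared, so nothing is read from the counts. Of the 10 nearest genes of each ligand over the tables (20 entries, 11 distinct genes), 14 entries remained with at least 20 CPM, and of the 10 highest of each over the cells (20 entries, 15 distinct genes), 17 entries remained with thinning to 5000 UMIs. TMM factors moved the log2 fold of all genes by 0.15 for BFRTV8d over BFRTV0d, by 0.22 for BFRTV4d over BFRTV0d and by 1.16 for CiMECs over BFRTV8d. No paired analysis was possible because each group is 1 pooled table with no replicate numbers, and no replicate could be left out for the same reason. With counts of 9 to 21 UMIs, depth limits the NPPC levels outside the induction.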
